A study of Mus musculus with 17 samples.

Results

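Integrins are adhesion receptors built from 1 alpha and 1 beta subunit, and the genes of the leukocyte integrins were followed here in macrophages sorted from mouse kidney. The genes were taken from a list of 10 (Itgam, Itgax, Itgal, Itgad, Itgb2, Itga4, Itgb1, Itgb7, Itgav and Itgb5) by symbol, through the Entrez identifier that names each probe set. A probe set was found for 9 of the 10, among 15780 named genes on the array. Itgad, which encodes the CD11d chain, had none in the table and was not analysed here.

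The macrophages had high surface F4/80 and came from kidneys of NZB/W mice, a hybrid strain that develops lupus nephritis spontaneously. Remission samples (n = 4) were taken 3 to 4 weeks after complete remission, in mice given 1 dose of cyclophosphamide, 6 doses of CTLA4Ig, which blocks costimulation of T cells, and anti-CD154, which blocks a T cell signal to cells that carry CD40. Nephritic samples (n = 7) came from mice with proteinuria of 2 to 6 weeks' standing that had not reached terminal renal failure. Prenephritic samples (n = 6) came from mice aged 8 to 16 weeks. The labels give an age for prenephritic mice alone and drugs for remission mice alone, so disease cannot be told apart from age, nor remission from treatment. Whether a sample was 1 animal or a pool is not stated, and p-values therefore cover the spread among these 17 arrays, which may be technical. In sorted populations a change in the mix of cells and a change in RNA per cell cannot be told apart.

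Beta 2 integrins are restricted to leukocytes. Itgb2 encodes the shared beta chain CD18, and its partners are the alpha chains of CD11b (Itgam), CD11c (Itgax), CD11a (Itgal) and CD11d (Itgad). With CD18, CD11b forms a receptor for complement-opsonised particles and fibrinogen, CD11c a second complement receptor, and CD11a the lymphocyte integrin that binds ICAM ligands. The alpha 4 chain (Itga4) pairs with the beta 1 chain (Itgb1) to bind VCAM-1 and fibronectin, or with the beta 7 chain (Itgb7) to bind MAdCAM-1 in gut. The alpha V chain (Itgav) pairs with beta 5 (Itgb5) or beta 1 to bind vitronectin and other matrix ligands, and takes part in uptake of apoptotic cells. In kidney, CD11b and CD11c are in common use as surface markers that divide its mononuclear phagocytes.

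RefSeq promoters (build GRCm38.p6, 250 bases before to 50 after the start of the gene) were found for 7 of the 10 genes, all except Itgal, Itgad and Itgb2. Those of Itgam and Itgax, adjacent genes that both rose in nephritic samples, and of Itgb7, which fell, are given 5′ to 3′ on the strand of the gene. Capitals mark the letters GAGGAA, a core bound by PU.1 and other ETS factors, and TGTGGT, a core bound by RUNX factors. Both were searched on both strands, so a match on the opposite strand reads TTCCTC or ACCACA, and no matches of the 2 motifs overlapped. The coordinates are chr7:128062390-128062689 on the plus strand for Itgam, chr7:128129300-128129599 on the plus strand for Itgax and chr15:102231886-102232185 on the minus strand for Itgb7.
Itgam: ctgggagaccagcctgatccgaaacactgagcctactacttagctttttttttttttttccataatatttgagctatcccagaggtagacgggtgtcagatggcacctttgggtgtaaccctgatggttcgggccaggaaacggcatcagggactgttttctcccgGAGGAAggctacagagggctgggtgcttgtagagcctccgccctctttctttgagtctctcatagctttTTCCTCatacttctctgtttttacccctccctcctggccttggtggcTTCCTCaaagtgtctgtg
Itgax: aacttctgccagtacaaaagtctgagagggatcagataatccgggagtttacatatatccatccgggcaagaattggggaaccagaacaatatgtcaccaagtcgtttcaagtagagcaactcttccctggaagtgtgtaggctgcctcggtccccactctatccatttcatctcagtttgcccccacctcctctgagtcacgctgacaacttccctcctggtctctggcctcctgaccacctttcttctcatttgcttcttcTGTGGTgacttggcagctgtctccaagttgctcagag
Itgb7: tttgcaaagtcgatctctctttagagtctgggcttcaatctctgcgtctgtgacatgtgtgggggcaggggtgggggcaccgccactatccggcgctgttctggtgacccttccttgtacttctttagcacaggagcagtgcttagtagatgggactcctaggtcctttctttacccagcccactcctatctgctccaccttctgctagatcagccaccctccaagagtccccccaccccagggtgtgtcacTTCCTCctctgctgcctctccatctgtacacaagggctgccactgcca
The Itgam window held 3 GAGGAA matches, the Itgb7 window 1 and the Itgax window 0. The Itgax window held 1 TGTGGT match, and the other 2 windows 0. Of 32851 promoters of this length, 28.3% held at least 1 GAGGAA match, 0.685% held at least 3, and 16.8% held at least 1 TGTGGT match. Among the other promoters found, Itgav held 2 and Itgb1 1 GAGGAA match, Itga4 held 1 TGTGGT match, and Itgb5 held neither.

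All values are log2 expression values on the authors' normalised scale, with 1 probe set per gene, and levels of different genes are not compared. Array medians lay between 7.49 and 7.68, and arrays correlated with each other at 0.942 to 0.994 over all genes. All 11 macrophage markers, Adgre1 (the F4/80 gene) and Csf1r among them, lay above 4.99, the lower quartile of all values. So did all 9 integrin genes in each group. The mean level of 19 tubule markers, a sign of RNA from kidney epithelium, ran from 10.04 to 11.52 in remission, 7.65 to 10.61 in nephritic and 8.95 to 10.86 in prenephritic arrays. Differences were tested with limma (moderated, two-sided, 1 model for the 3 groups), and a gene was called at an adjusted p under 0.05, with Benjamini-Hochberg adjustment over all genes of a comparison. With 4 to 7 arrays per group, the number of arrays limits the precision.

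**Figure D1:**
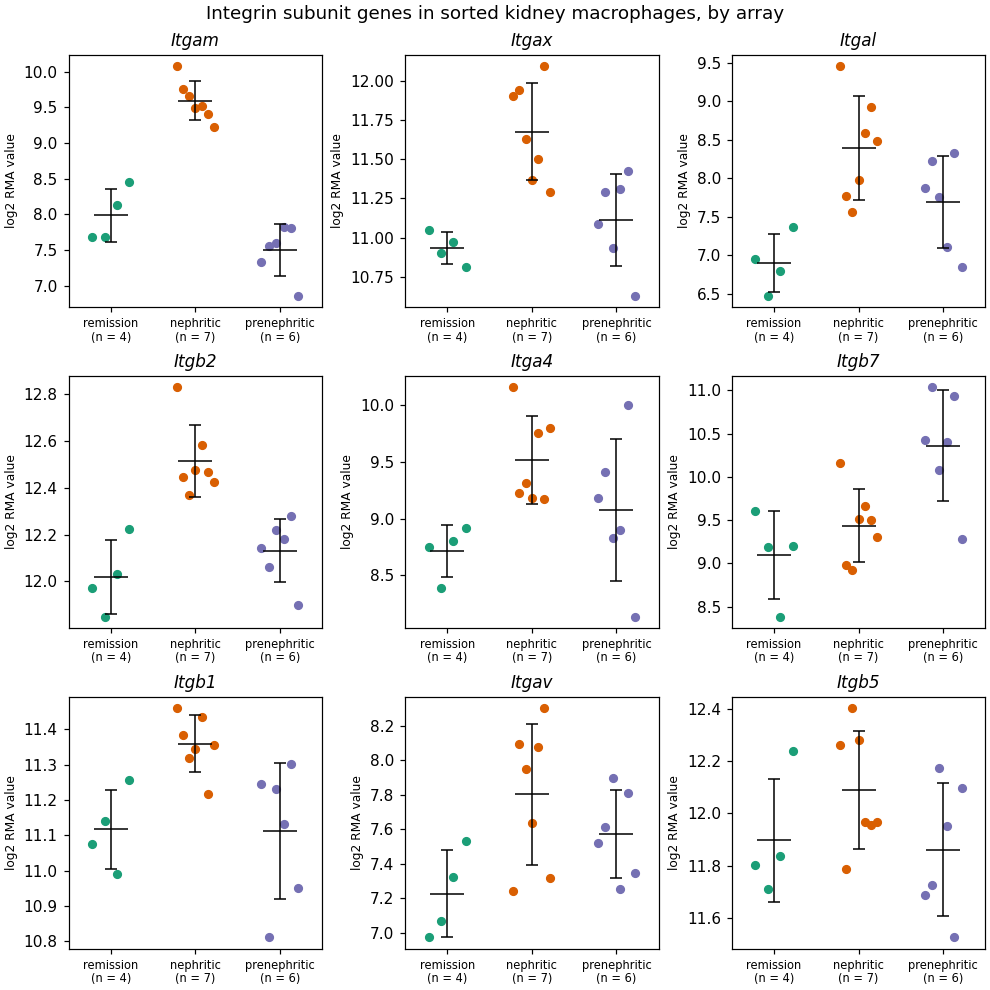
Log2 expression (vertical axis, a separate range for each gene) of the 9 measured integrin genes in remission (n = 4), nephritic (n = 7) and prenephritic (n = 6) arrays; each point is 1 array, and the bars give the mean ± SD. Itgam in nephritic arrays, at 9.22 or more, lies above every array of the other 2 groups, and Itgb7 has its highest mean, 10.36, in prenephritic arrays.

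Between nephritic and prenephritic samples, 3 of the 9 integrin genes rose (Itgam, Itgax and Itgb2), 1 fell (Itgb7) and 5 did not pass. Over all genes 12.1% were called, 6.74% higher and 5.32% lower. The median difference of the 9 genes was 0.38, against −0.02 over all genes. The groups did not overlap for 2 of the 9 genes, Itgam and Itgb2, against 4.68% of all genes. Among beta 2 partners that rose, Itgam gained most, by 4.26-fold.

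Between remission and nephritic samples, 4 of the 9 fell (Itgam, Itgax, Itgal and Itgb2) and 0 rose. The background was 13.3%, with 3.27% higher and 1584 of 15780 genes lower. All 9 differences were negative, with a median of −0.58 against −0.03 over all genes. The groups did not overlap for 5 of the 9 (Itgam, Itgax, Itgal, Itgb2 and Itga4), against 8.65% of all genes. This comparison shares the nephritic arrays with the one before, so the 2 sets of differences are not independent.

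Between remission and prenephritic samples, limma called 0 of the 9 integrin genes, and 3 (Itgam, Itgal and Itgb7) had an unadjusted p under 0.05. The background was 0.00634%, a single gene, while 18.7% of all genes had such an unadjusted p. The groups overlapped for all 9 genes, against 2.32% of all genes without overlap.

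**Figure D2:**
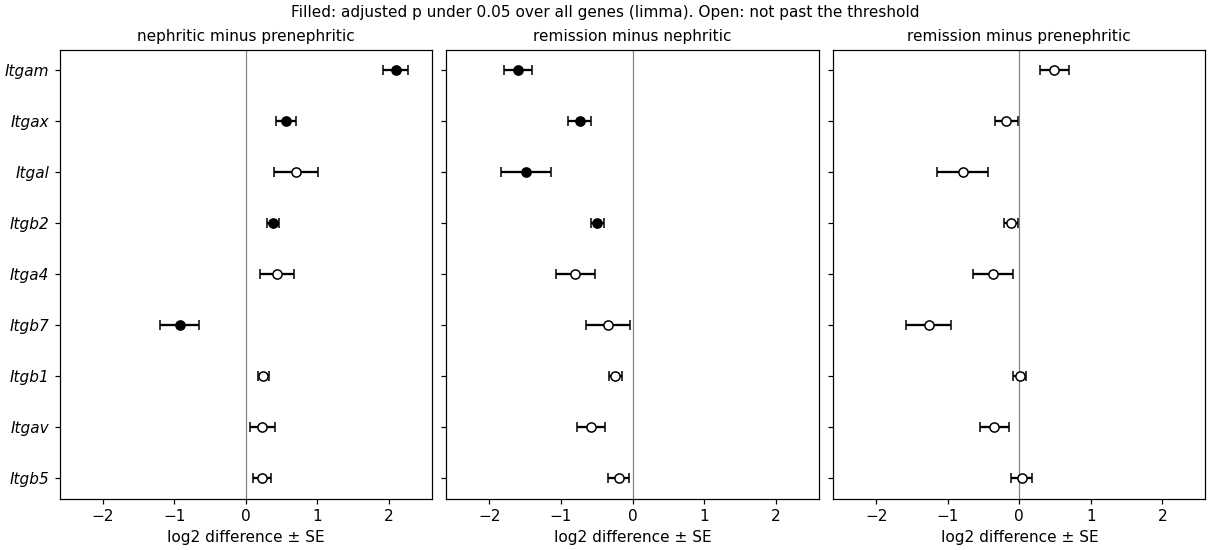
Log2 difference (horizontal axis) ± SE of each integrin gene in the 3 comparisons; filled points passed an adjusted p of 0.05 over all genes (limma). In nephritic minus prenephritic arrays Itgam stands at 2.09 and Itgb7 at −0.93, and in remission minus nephritic arrays all 9 points lie left of 0.

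Itgam, the CD11b gene, had values of 7.69, 7.69, 8.13 and 8.45 in remission arrays, between 9.22 and 10.07 (median 9.52) in nephritic arrays, and between 6.86 and 7.82 (median 7.58) in prenephritic arrays. All 7 nephritic arrays lay above all others, while 2 remission arrays lay above every prenephritic array. The difference was 2.09 ± 0.17 in nephritic minus prenephritic arrays (limma, adjusted p = 3.2e-06), rank 6 by p among 15780 genes. It was −1.60 ± 0.19 in remission minus nephritic arrays (3.03-fold lower, adjusted p = 0.00013). In remission minus prenephritic arrays it was 0.49 ± 0.20, which did not pass (adjusted p = 0.23, 95% interval 0.07 to 0.91).

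Monocytes, neutrophils and NK cells also carry CD11b. Over all genes 12.1% were called in nephritic minus prenephritic and 13.3% in remission minus nephritic arrays. Of 7 measured monocyte markers, 3 (42.9%) rose in nephritic samples (Ccr2, Plac8 and Clec4e) and the same 3 fell in remission samples. Their mean level over the list was 7.84 to 8.28 in remission, 8.26 to 9.02 in nephritic and 7.75 to 8.64 in prenephritic arrays. Clec4e, an inducible lectin receptor gene, moved most, by 2.58 ± 0.41 and −2.37 ± 0.46 in the 2 comparisons. Of 9 neutrophil markers, 5 (Ngp, Cxcr2, Mpo, Elane and Ltf) lay below the lower quartile. Of the same 9, 1 (11.1%), the G-CSF receptor gene Csf3r, rose in nephritic (0.66 ± 0.15) and fell in remission samples (−0.85 ± 0.17). The list's mean level was 5.19 to 6.32 in remission, 5.41 to 6.40 in nephritic and 5.20 to 6.64 in prenephritic arrays. Of 8 NK cell markers, 4 lay below the quartile (Ncr1, Prf1, Eomes and Klre1), and their mean level was 4.90 to 5.29 in remission, 5.25 to 5.73 in nephritic and 5.00 to 6.19 in prenephritic arrays. The NK gene Klrd1 fell in nephritic samples (12.5% of the 8 called), while Klrb1c and Klrk1 fell in remission samples (25% called). The part of these cells in the Itgam result was not tested.

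Itgax, the CD11c gene, had values of 10.81, 10.90, 10.97 and 11.05 in remission arrays, between 11.29 and 12.09 (median 11.63) in nephritic arrays and between 10.63 and 11.42 (median 11.19) in prenephritic arrays. Every nephritic array exceeded every remission array, and nephritic and prenephritic arrays overlapped in part. It rose by 0.56 ± 0.14 in nephritic samples (1.48-fold, limma, adjusted p = 0.017) and was 1.67-fold lower in remission than in nephritic samples (−0.74 ± 0.16, adjusted p = 0.0067). In remission minus prenephritic arrays the difference was −0.18 ± 0.17 (adjusted p = 0.56, 95% interval −0.53 to 0.17).

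CD11c is also a marker of dendritic cells. Of 9 conventional dendritic cell markers, Xcr1 rose in nephritic samples (2.37 ± 0.43) while Flt3 (−1.63 ± 0.50) and Cd209a (−3.73 ± 0.65, with a nephritic mean of 4.20, below the lower quartile) fell. In remission samples Xcr1 (−1.98 ± 0.49) and Zbtb46 (−1.16 ± 0.35, with a remission mean below the lower quartile) were lower than in nephritic samples. The shares called were 33.3% and 22.2% of the list, against 12.1% and 13.3% of all genes. The list's mean level was 6.34 to 7.30 in remission, 6.91 to 7.94 in nephritic and 6.71 to 8.59 in prenephritic arrays, and only Kit of the 9 lay below the quartile over all arrays. The part of dendritic cells in the Itgax result was not tested.

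Itgb2, the gene of the shared chain CD18, had values of 11.85, 11.97, 12.03 and 12.23 in remission arrays, between 12.37 and 12.83 (median 12.47) in nephritic arrays and between 11.90 and 12.28 (median 12.16) in prenephritic arrays. As for Itgam, every nephritic array lay above all 10 others. It rose by 0.38 ± 0.08 in nephritic samples (1.30-fold, limma, adjusted p = 0.0060) and was 0.49 ± 0.09 lower in remission than in nephritic samples on the log2 scale (1.41-fold, adjusted p = 0.0027). Remission and prenephritic arrays differed by −0.11 ± 0.10 (adjusted p = 0.53, 95% interval −0.32 to 0.09).

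Itgal, the CD11a gene, had values of 6.48, 6.80, 6.95 and 7.37 in remission arrays, between 7.56 and 9.45 (median 8.48) in nephritic arrays and between 6.85 and 8.33 (median 7.82) in prenephritic arrays. Remission arrays all lay below the nephritic ones, nephritic and prenephritic arrays overlapped widely, and the spread was the widest of the 9 genes in nephritic arrays (SD 0.67). The difference was −1.49 ± 0.34 in remission minus nephritic arrays (2.81-fold lower, limma, adjusted p = 0.0092). It was 0.70 ± 0.31 in nephritic minus prenephritic arrays (adjusted p = 0.16, 95% interval 0.05 to 1.34). In remission minus prenephritic arrays it was −0.79 ± 0.35 (adjusted p = 0.25, 95% interval −1.54 to −0.04).

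T cells express CD11a at high level. Of 11 T cell markers, Cd3d, Cd3e, Cd3g and Cd8a were lower and Cd28 was higher in remission than in nephritic samples. In nephritic minus prenephritic samples Cd3e (0.67 ± 0.18), Cd3g (1.47 ± 0.27) and Cd8a rose and Cd28 fell. The shares called were 36.4% there and 45.5% in remission minus nephritic samples, against 12.1% and 13.3% of all genes. The list's mean level was 5.25 to 5.46 in remission, 5.32 to 5.84 in nephritic and 5.37 to 5.61 in prenephritic arrays, and 4 markers (Cd3g, Cd8a, Cd8b1 and Themis) lay below the lower quartile over all arrays. In nephritic replicates 1 to 7 the T cell list level was 5.52, 5.84, 5.32, 5.32, 5.59, 5.83 and 5.56. Itgal in the same arrays was 9.45, 7.77, 7.56, 7.97, 8.58, 8.92 and 8.48. The part of T cells in the Itgal result was not tested.

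B cells and plasma cells also carry CD11a and the alpha 4 chain. Of 8 measured B and plasma cell markers, 4 rose and 1 fell in nephritic samples, and 2 fell and 1 rose in remission minus nephritic arrays, with median differences of 0.68 and −0.65. Those that rose in nephritic samples were the antibody joining chain gene Jchain (2.76 ± 0.52), Pou2af1 (2.34 ± 0.46), Mzb1 (1.95 ± 0.32) and the B cell receptor chain gene Cd79b (0.54 ± 0.15), while Tnfrsf17, which encodes the plasma cell receptor BCMA, fell (−1.73 ± 0.26). In remission samples Pou2af1 (−2.25 ± 0.52) and Mzb1 (−1.85 ± 0.36) were lower and Tnfrsf17 (1.04 ± 0.29) was higher than in nephritic samples. In the 2 comparisons 62.5% and 37.5% of the list were called, against 12.1% and 13.3% of all genes. The list's mean level was 7.39 to 7.62 in remission, 7.85 to 8.64 in nephritic and 6.997 to 8.10 in prenephritic arrays, and Ms4a1 and Pax5 lay below the lower quartile. Nephritic replicate 1 had the highest list level, 8.64, and the highest Itgal and Itga4 values of the 17 arrays. Prenephritic replicate 5 was highest of its group in all 3. Nephritic replicate 2, with a list level of 8.45, had Itgal at 7.77 and Itga4 at 9.23, both in the lower part of the nephritic range. The part of B cells and plasma cells in the Itgal and Itga4 results was not tested.

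Itgb7, the beta 7 gene, had values of 8.39, 9.19, 9.20 and 9.61 in remission arrays, between 8.92 and 10.15 (median 9.50) in nephritic arrays and between 9.28 and 11.03 (median 10.42) in prenephritic arrays. The prenephritic values stood at 10.08 or more except that of replicate 6, which at 9.28 lay among those of the other groups. It fell by 0.93 ± 0.27 on the log2 scale in nephritic samples (1.90-fold, limma, adjusted p = 0.035). Remission and nephritic arrays differed by −0.34 ± 0.31 (adjusted p = 0.51, 95% interval −0.99 to 0.31).

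In remission minus prenephritic arrays the Itgb7 difference was −1.26 ± 0.32 (2.40-fold), the largest of the 9 genes in that comparison, and did not pass (adjusted p = 0.14, 95% interval −1.93 to −0.60). Without prenephritic replicate 6 it was −1.48 and passed (adjusted p = 0.021), as it also did with array weights (−1.35, adjusted p = 0.036). The call in nephritic minus prenephritic arrays was lost when nephritic replicate 2, 3, 4, 6 or 7 or prenephritic replicate 1, 2, 4 or 5 was left out (adjusted p from 0.050 to 0.086), with differences from −0.94 to −0.79.

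Prenephritic replicate 6, low in Itgb7, also had the lowest level of the dendritic cell list among prenephritic arrays, 6.71, and the highest level of the tubule list, 10.86. In prenephritic replicates 1 to 6 the dendritic cell list level was 7.94, 8.59, 7.38, 7.74, 8.14 and 6.71. Itgb7 in the same arrays was 10.43, 11.03, 10.08, 10.41, 10.93 and 9.28. From highest to lowest, these arrays stood in the same order for both. The NK cell list level in them was 5.92, 6.04, 5.45, 5.53, 6.19 and 5.00. Prenephritic replicate 6 was also the lowest of its group for Itgam, Itgax, Itgal, Itgb2 and Itga4. Among nephritic arrays the dendritic cell list was lowest in replicate 5, at 6.91, where Itgb7 was 9.66. It was highest in replicate 6, at 7.94, where Itgb7 was 9.50. With the tubule level as a covariate Itgb7 kept its call in nephritic minus prenephritic arrays. Beyond that fit, the part of dendritic cell, NK cell and tubule RNA in the Itgb7 result was not tested. Itgae, the gene of the alpha E chain that pairs with beta 7 and is found on some dendritic cells and T cells, averaged 6.68 ± 0.85 in nephritic (SD, n = 7) and 6.87 ± 1.12 in prenephritic arrays (SD, n = 6), a difference of −0.19 ± 0.50 (limma, adjusted p = 0.87).

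Itga4, the alpha 4 gene, had values of 8.39, 8.75, 8.80 and 8.91 in remission arrays, between 9.17 and 10.16 (median 9.31) in nephritic arrays and between 8.14 and 10.004 (median 9.04) in prenephritic arrays. Every nephritic array lay above every remission array, and prenephritic arrays spanned nearly the range of both. The difference in remission minus nephritic arrays was −0.80 ± 0.27 (limma, adjusted p = 0.060, 95% interval −1.37 to −0.23), so it was not called. It passed with array weights, in a fit of the 2 groups alone, without dim genes, without prenephritic replicate 5 or 6, and without nephritic replicate 6 and prenephritic replicate 5 together, at adjusted p between 0.020 and 0.049. Nephritic minus prenephritic arrays gave 0.44 ± 0.24 (adjusted p = 0.28) and remission minus prenephritic arrays −0.36 ± 0.28 (adjusted p = 0.47).

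Itgb1, the beta 1 gene, had values of 10.99, 11.08, 11.14 and 11.26 in remission arrays, between 11.22 and 11.46 (median 11.35) in nephritic arrays and between 10.81 and 11.30 (median 11.18) in prenephritic arrays. Nephritic arrays sat at the top with little spread, and overlapped with 1 or more arrays of both other groups. The difference was 0.25 ± 0.08 in nephritic minus prenephritic arrays (1.19-fold, limma, adjusted p = 0.0502) and −0.24 ± 0.09 in remission minus nephritic arrays (adjusted p = 0.077). The first fell just short of the threshold, and passed when dim genes were left out or every probe set was tested (adjusted p = 0.045 and 0.0498), with a trended and robust prior or the tubule level as a covariate (adjusted p = 0.044 and 0.048), and without prenephritic replicate 1 or 5, nephritic replicate 6 or remission replicate 4 (adjusted p from 0.034 to 0.049). Remission and prenephritic arrays differed by 0.0038 ± 0.091 (adjusted p = 0.98, 95% interval −0.19 to 0.20). The remission minus nephritic difference passed without prenephritic replicate 2 or remission replicate 4 (adjusted p = 0.042 and 0.047).

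Itgav, the alpha V gene, had values of 6.98, 7.07, 7.32 and 7.53 in remission arrays, between 7.24 and 8.30 (median 7.95) in nephritic arrays and between 7.25 and 7.90 (median 7.57) in prenephritic arrays. The 3 groups overlapped. Remission minus nephritic arrays gave −0.58 ± 0.19 (1.49-fold lower, limma, adjusted p = 0.059), which passed without dim genes (adjusted p = 0.049) and with array weights (adjusted p = 0.030). Nephritic minus prenephritic arrays gave 0.23 ± 0.17 (adjusted p = 0.46) and remission minus prenephritic arrays −0.35 ± 0.20 (adjusted p = 0.34). The remission minus nephritic difference also passed without nephritic replicate 1 or 7 or remission replicate 4 (adjusted p from 0.027 to 0.037).

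Itgb5, the beta 5 gene, had values of 11.71, 11.80, 11.84 and 12.24 in remission arrays, between 11.79 and 12.40 (median 11.97) in nephritic arrays and between 11.52 and 12.18 (median 11.84) in prenephritic arrays. The difference was 0.23 ± 0.13 in nephritic minus prenephritic arrays, −0.19 ± 0.14 in remission minus nephritic arrays and 0.04 ± 0.15 in remission minus prenephritic arrays, with adjusted p of 0.28, 0.41 and 0.91 in limma. The 95% interval in nephritic minus prenephritic arrays ran from −0.04 to 0.50. Epithelial cells also make the alpha V, beta 5 and beta 1 chains. Of 19 tubule markers, 5 (26.3%) were higher in remission than in nephritic samples and 0 lower, against 3.27% higher over all genes. The differences of the 3 integrin genes in that comparison were negative and did not pass. With the tubule level as a covariate these differences also stayed negative and did not pass. Beyond that fit, the part of epithelial RNA in the results of these genes was not tested.

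Because an integrin needs both chains, the alpha gene was next set against the beta gene of the same heterodimer within each array. For 7 known pairs the log2 difference of the 2 genes was compared between groups by exact two-sided permutation over arrays, with adjustment over 21 tests. Only changes of this ratio between groups can be read, since its zero point depends on the probes. A changed ratio shows that the 2 genes changed unequally and not which one moved. The smallest exact p that the arrays allow is 0.0012 with nephritic and prenephritic arrays, 0.0061 with remission and nephritic arrays, and 0.0095 with remission and prenephritic arrays.

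Itgam moved more than Itgb2. The ratio averaged −4.03 ± 0.23 in remission (SD, n = 4), −2.92 ± 0.20 in nephritic (SD, n = 7) and −4.63 ± 0.25 in prenephritic arrays (SD, n = 6), without overlap between any 2 groups. It was 1.71 higher in nephritic than in prenephritic arrays (exact p = 0.0012, adjusted p = 0.012) and 1.11 lower in remission than in nephritic arrays (log2 difference −1.11, exact p = 0.0061, adjusted p = 0.025). In remission it stayed 0.60 above prenephritic arrays (exact p = 0.0095, adjusted p = 0.029). Each of the exact p-values of this ratio is the smallest possible. Neither Itgam nor Itgb2 alone passed limma in remission minus prenephritic arrays (unadjusted p = 0.026 and 0.265). That test is adjusted over all genes and the ratio test over 21 tests, so the 2 thresholds are not alike.

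The Itgax to Itgb2 ratio differed by 0.18, −0.25 and −0.07 in the 3 comparisons, and none passed (exact permutation, adjusted p = 0.36, 0.35 and 0.71). The Itgal to Itgb2 ratio was lower in remission than in nephritic arrays (log2 difference −0.995, exact p = 0.0061, adjusted p = 0.025), with no overlap. Its other differences, 0.32 in nephritic and −0.68 in remission against prenephritic arrays, had adjusted p of 0.39 and 0.16 in the exact test.

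The Itga4 to Itgb7 ratio averaged −0.38 ± 0.59 in remission (SD, n = 4), 0.08 ± 0.32 in nephritic (SD, n = 7) and −1.28 ± 0.25 in prenephritic arrays (SD, n = 6). It was 1.36 higher in nephritic than in prenephritic arrays (exact p = 0.0012, adjusted p = 0.012) and 0.90 higher in remission than in prenephritic arrays (exact p = 0.0095, adjusted p = 0.029), without overlap in either case. Remission and nephritic arrays differed by −0.46 (exact p = 0.13, adjusted p = 0.24). The Itga4 to Itgb1 ratio was 0.56 lower in remission than in nephritic arrays (log2 difference −0.56, exact p = 0.0061, adjusted p = 0.025) and differed by 0.19 and −0.37 in the other comparisons (exact test, adjusted p = 0.55 and 0.39). None of the 6 differences of Itgav to Itgb1 or Itgb5 passed, with sizes up to 0.38 and adjusted p of 0.16 or more in the exact test. Without any 1 remission array, 2 ratio tests of the 21 passed in place of 7, since 3 arrays in a group allow no smaller exact p.

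**Figure D3:**
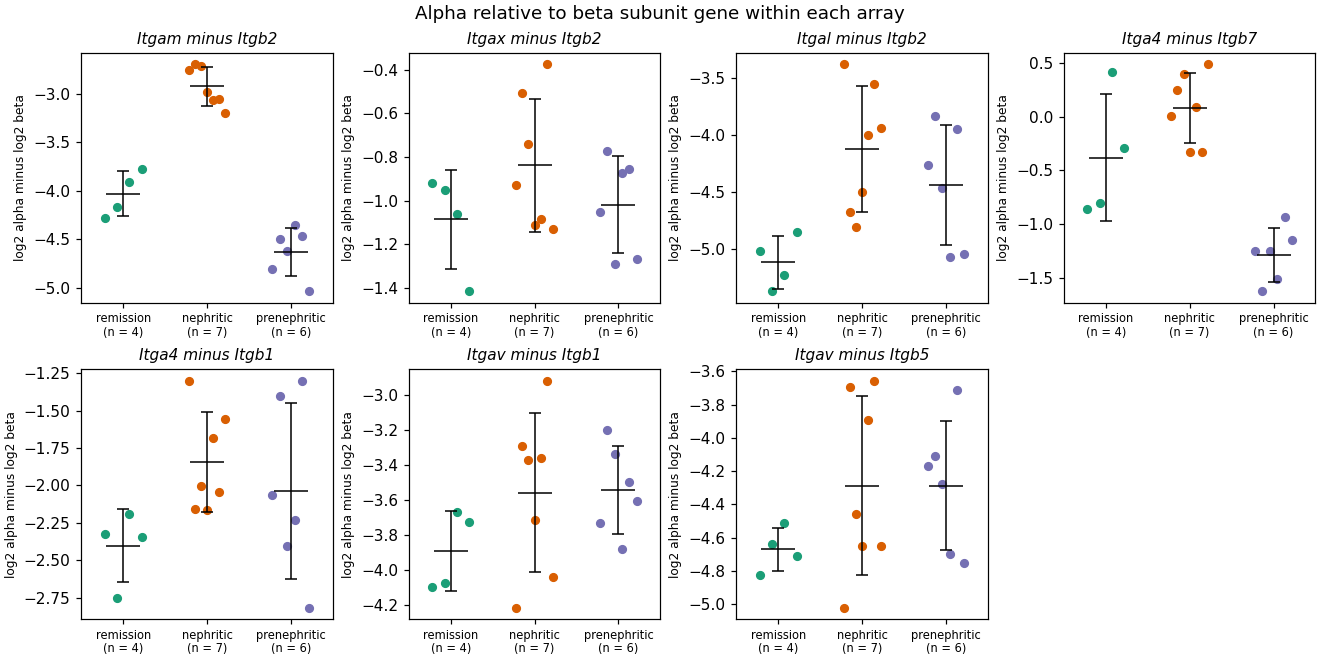
Log2 value of the alpha gene minus that of the beta gene in the same array (vertical axis) for 7 heterodimers, in remission, nephritic and prenephritic arrays; points are arrays and bars the mean ± SD. The 3 groups separate for Itgam minus Itgb2, and for Itga4 minus Itgb7 all 6 prenephritic arrays lie below the 11 others.

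Itgam and Itgax lie next to each other on chromosome 7, and the measured genes around them were examined in the order of the RefSeq table. Pycard, the inflammasome adaptor gene just before Itgam, rose by 0.82 ± 0.10 in nephritic samples (limma, adjusted p = 6.4e-05) and was 0.70 ± 0.11 lower in remission than in nephritic samples on the log2 scale (log2 difference −0.70, adjusted p = 0.00080). Cox6a2, the next measured gene after Itgax, rose by 0.32 ± 0.10 in nephritic samples (adjusted p = 0.037). It lost its call in 15 of 27 alternatives, among them repeated quantile normalization and removal of nephritic replicate 1, 2, 3, 4 or 6 or prenephritic replicate 1, 2, 3 or 5. The other 6 genes, Kat8, Prss8 and Prss36 on one side and Armc5, Tgfb1i1 and Slc5a2 on the other, passed in neither of these comparisons (adjusted p of 0.066 or more).

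**Figure D4:**
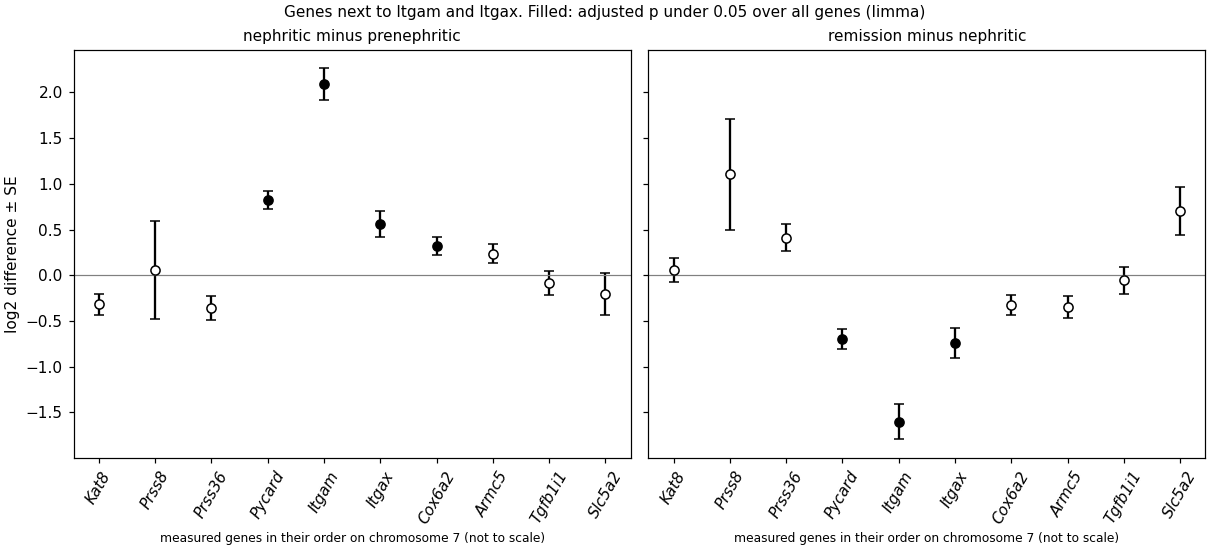
Log2 difference ± SE (vertical axis) of 10 measured genes in their order along chromosome 7 (horizontal axis, not to scale) in 2 comparisons; filled points passed an adjusted p of 0.05 over all genes. Pycard, Itgam and Itgax are filled in both, at 0.82, 2.09 and 0.56 in nephritic minus prenephritic arrays.

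The genes whose centred profile over the 17 arrays came nearest to that of Itgam were Mmp14, a membrane-type matrix protease gene, Acp5, a lysosomal acid phosphatase gene, Spon1, a matrix protein gene, Pla2g7, which encodes a phospholipase that degrades platelet-activating factor, and Kcnn4, a calcium-activated potassium channel gene. Their root mean square difference from Itgam was 0.28 to 0.31 on the log2 scale, while Itgam itself varied by 1.00 around its mean. Among the integrin genes the nearest was Itgax, at 0.72. The nearest to Itgax were Traf3ip2, Fam167a, Ltf, Pvr and Cblb, at 0.17 to 0.20, with a variation of Itgax of 0.40. Fam167a and Ltf had group means below the lower quartile. Itgb2 stood at 0.26 from Itgax.

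Other parts of the integrin system were then counted in the same fit. These lists, like the members and the cell type lists, were chosen with earlier results of these data known. A share above that of all genes, which include genes at low level, is therefore not a test of a list. Of 14 other integrin subunit genes, 1 rose in nephritic samples, the fibronectin receptor gene Itga5 (0.41 ± 0.11, limma, adjusted p = 0.023), and 1 fell, Itga8 (−0.90 ± 0.15, adjusted p = 0.0010), which is known from mesangial and mesenchymal cells. The same genes turned the other way in remission minus nephritic arrays, Itga5 by −0.72 ± 0.12 and Itga8 by 0.87 ± 0.17. The 2 of 14 called (14.3%) compare with 12.1% and 13.3% of all genes, and without prenephritic replicate 1 or 5 the nephritic count was 1. Itgb3, the other common partner of alpha V, had means of 4.16 to 4.38 in the 3 groups, below the lower quartile.

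Of 22 ligand genes, 3 rose and 1 fell in nephritic samples (18.2% called, against 12.1% of all genes). Their median difference was 0.11 against −0.02 over all genes. Vcam1, the ligand of alpha 4 beta 1, rose by 1.39 ± 0.21 (limma, adjusted p = 0.00043), Icam1, a ligand of beta 2 integrins, by 0.51 ± 0.13 (adjusted p = 0.015) and Plaur, the urokinase receptor gene, by 1.03 ± 0.28 (adjusted p = 0.026). Mfge8, which bridges apoptotic cells to alpha V integrins, fell by 0.53 ± 0.14 (adjusted p = 0.018). Vcam1 averaged 9.49 in remission, 10.52 in nephritic and 9.13 in prenephritic arrays. In remission, 5 ligand genes were lower than in nephritic samples (Icam1, Vcam1, Plaur, Thy1 and Nrros) and 0 higher. The share called was 22.7%, against 13.3% of all genes. The median difference was −0.11 against −0.03 over all genes. The nephritic count of 4 became 8 without nephritic replicate 3 and 7 with the tubule level as a covariate, and the remission count of 5 became 3 without remission replicate 2 and 8 with array weights. Plaur lost its call in nephritic minus prenephritic arrays without nephritic replicate 1 or without prenephritic replicate 3, 5 or 6 (0.88 to 1.01, adjusted p from 0.0501 to 0.066), and in remission minus nephritic arrays without remission replicate 1 or 2 (adjusted p = 0.0501 and 0.057). Vcam1 lost its call in remission minus nephritic arrays with the tubule covariate (−0.85, adjusted p = 0.070), and Icam1 its call in nephritic minus prenephritic arrays without nephritic replicate 6 and prenephritic replicate 5 (0.39, adjusted p = 0.075). In remission minus nephritic arrays Thy1 lost its call without remission replicate 2 or 3 (limma, adjusted p up to 0.080). Its level lay below the lower quartile over all arrays. Nrros lost its call there with the tubule covariate (limma, adjusted p = 0.071).

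The integrin activation list, with genes of talin and the GTPase Rap1, does not separate genes that promote activation from genes that restrain it. Of its 17 genes, 6 rose and 1 fell in nephritic samples (41.2% called, against 12.1% of all genes). The largest of these was the Rap1 effector gene Apbb1ip (0.53 ± 0.15, limma, adjusted p = 0.027), and Itgb1bp1 (0.37 ± 0.07, adjusted p = 0.0025), Rap1b (0.32 ± 0.07, adjusted p = 0.0052) and the adaptor gene Fyb (0.32 ± 0.09, adjusted p = 0.023) were among them. The 1 that fell was Rassf5 (−0.29 ± 0.09, adjusted p = 0.044), which lost its call in 15 of 27 alternatives (limma, adjusted p up to 0.148). The median was 0.16 against −0.02 over all genes. With array medians subtracted 3 of the 17 were called, and 4 with quantile normalization repeated. The count was also 3 or 4 when nephritic replicate 1, 4, 5 or 7 or prenephritic replicate 1, 2 or 3 was left out.

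In remission minus nephritic arrays, 9 of these 17 were lower and 0 higher (52.9% called, against 13.3% of all genes). Their median was −0.32 against −0.03. Rasgrp2, an activator of Rap1, was lower by 1.63 ± 0.35 on the log2 scale (log2 difference −1.63, limma, adjusted p = 0.0056), Flna, the filamin gene, by 0.59 (log2 difference −0.59 ± 0.13, adjusted p = 0.0063), Apbb1ip by 0.76 (log2 difference −0.76 ± 0.17, adjusted p = 0.0070) and talin, Tln1, by 0.37 (log2 difference −0.37 ± 0.10, adjusted p = 0.022). Fermt3, the kindlin gene of blood cells, differed by −0.30 ± 0.11 (adjusted p = 0.069). With the tubule level as a covariate 3 of the 17 were called, and without remission replicate 1 or 2 the count was 4 or 5.

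Of 22 genes of signalling downstream of integrins, 5 rose and 2 fell in nephritic samples (31.8% called, against 12.1% of all genes). Their median was 0.10 against −0.02. Fgr, a Src family kinase gene of myeloid cells, rose by 1.37 ± 0.21 (limma, adjusted p = 0.00053), the adaptor gene Lcp2 by 0.73 ± 0.10 (adjusted p = 0.00022) and Rac2 by 0.52 ± 0.12 (adjusted p = 0.012). Parvg, the gamma parvin gene of leukocyte adhesion complexes, fell by 1.43 ± 0.14. Vav3 also fell (−0.28) and Pxn rose (0.32), but they lost these calls in 16 and 15 of 27 alternatives. In remission minus nephritic arrays 8 of the 22 were lower and 0 higher (36.4% called, against 13.3% of all genes). Among them were Fgr (−1.59 ± 0.24), Lcp2 (−0.98 ± 0.12), the zyxin gene Zyx (−0.79 ± 0.14) and the kinase gene Syk (−0.57 ± 0.14). That count was 4 with the tubule level as a covariate and 4 without remission replicate 2, and the nephritic count was 4 without nephritic replicate 6 and prenephritic replicate 5.

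Parvg was the only gene of the whole array that limma called between remission and prenephritic samples. It averaged 7.77 ± 0.34 in remission (SD, n = 4), 7.49 ± 0.21 in nephritic (SD, n = 7) and 8.92 ± 0.28 in prenephritic arrays (SD, n = 6). The difference was −1.15 ± 0.16 (adjusted p = 0.041), with no overlap between the groups. The call was lost in 15 of 27 alternatives, among them the removal of remission replicate 1, 2 or 3, of nephritic replicate 1, 2, 4, 6 or 7, or of prenephritic replicate 1, 2, 3 or 5, with differences from −1.27 to −0.98.

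**Figure D5:**
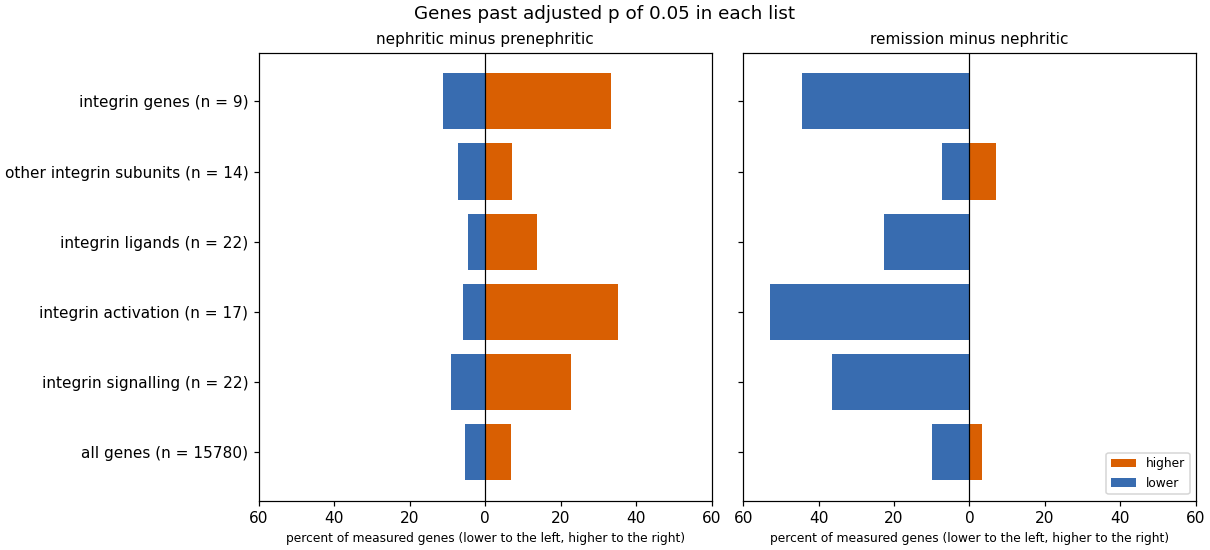
Share of the measured genes of each list (horizontal axis, percent, lower calls to the left and higher calls to the right) that passed an adjusted p of 0.05 in 2 comparisons, with all 15780 genes as background. In remission minus nephritic arrays the activation list reaches 52.9% lower, while 1584 of 15780 genes were lower.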

How the data were processed

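RNA of sorted F4/80hi kidney macrophages was hybridised to Affymetrix arrays, 1 per sample, after extraction with a kit for small samples, per the labels' protocols. The authors deposited log2 values made by RMA, per the submitters' processing notes; no version, probe definition or filter is stated there. RMA includes quantile normalization between arrays, so changes of total RNA cannot be read. Of 16539 probe sets, 64 were controls and 695 unnamed, and 15780 had 1 symbol in GEO's platform annotation (0 had several); 15752 matched RefSeq (GRCm38.p6) by Entrez identifier, with 0 symbols changed. No filter on level was used.

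Groups and replicate numbers came from sample titles. limma 3.58.1 in R 4.3.3 fitted a mean per group to 17 arrays (14 residual degrees of freedom) and was tested on simulated data. Ratios were tested by exact permutation with scipy 1.17.1; the planned Itgad pair had no probe set, so 7 pairs were run. The members and gene lists (other subunits, ligands, activation, signalling, macrophage and other cell types) were chosen with earlier results of these data known. Named genes were all members, up to 4 called genes per list with the smallest p (further ones were named after their values were seen), the 5 nearest profiles of Itgam and Itgax, and the 4 nearest measured neighbours on each side. Alternatives left out dim genes, changed the normalization, variance prior, array weights, groups fitted and features tested, added a replicate block or tubule covariate, required 1.5-fold, and left out arrays.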

Additional observations from a re-analysis of the deposited data

How the results depend on the processing

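Across 27 alternatives, Itgam, Itgax and Itgb2 kept their calls in nephritic minus prenephritic arrays (1.96 to 2.18, 0.47 to 0.63 and 0.31 to 0.42) and, with Itgal, in remission minus nephritic arrays (−1.76 to −1.41, −0.81 to −0.65, −0.56 to −0.44 and −1.65 to −1.31). Requiring 1.5-fold, a further setting, left 2 of 4 integrin calls in nephritic minus prenephritic arrays, those of Itgam and Itgb7. Itgax (1.48-fold) and Itgb2 (1.30-fold) fell short of it. Itgb2 (1.41-fold) also fell short in remission minus nephritic arrays, where array weights gave 7 integrin calls in place of 4. In remission minus prenephritic arrays array weights gave 1 call, the replicate block 1, and leaving out 1 array 0 to 1, each being Itgb7. Same-numbered arrays of different groups correlated over 0.1 in their deviations in 8 of 14 pairs (−0.26 to 0.80), and all 4 remission and nephritic pairs were above 0. Differently numbered arrays were not compared in this way, so these values cannot say whether the numbers mark pairs. The labels state no pairing, and the main fit used none. With the replicate block Itgb7 gained its call in remission minus prenephritic arrays (−1.30, limma, adjusted p = 0.042) and Itga4 in remission minus nephritic arrays (−0.76, adjusted p = 0.041). In nephritic minus prenephritic arrays Mfge8 (−0.49, adjusted p = 0.056), Plaur (1.09, adjusted p = 0.058), Vav3 and Pxn lost theirs, and ligand calls fell to 2 with the block, against 4 without it. Over all 27 alternatives Vav3 lost its call in 16 and Pxn in 15. Leaving out 1 array gave 2 to 7 ratio tests past the threshold. Signs turned only for differences near 0. For Itgb1 in remission minus prenephritic arrays the difference was −4.4e-05 with medians subtracted, −0.049 with array weights, −0.0011 with the replicate block and −0.057 to 0.045 without 1 array. For Itgb5 there it was −0.013 with the block, −0.031 without nephritic replicate 6 and prenephritic replicate 5, and −0.078 to 0.0996 without 1 array. With repeated quantile normalization the Itgav to Itgb1 and Itgav to Itgb5 ratios gave 0.035 and 0.069 in nephritic minus prenephritic arrays, and without 1 array −0.12 to 0.093 and −0.11 to 0.12. Itgax to Itgb2 in remission minus prenephritic arrays gave −0.12 to 0.04 without 1 array. Over all genes, calls in nephritic minus prenephritic arrays numbered 1904, against 2955 with the tubule covariate and 1236 when prenephritic replicate 5 and nephritic replicate 6 were left out. Calls in remission minus nephritic arrays numbered 2100, against 3624 with array weights, 1340 with the tubule covariate, and 1121 and 1021 without remission replicate 1 or 2. Calls in remission minus prenephritic arrays numbered 1, against 358 with array weights, 478 with the block, 199 without prenephritic replicate 6 and 17 without remission replicate 4. The cause was not tested. Signal over background was not analysed here, and the lower quartile stands in for a detection limit.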
